A study of Homo sapiens with 6 samples.

Results

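In human cells labelled HSC2, 10 genes for plasma membrane amino acid transporters were followed on 6 single-colour Affymetrix arrays. They were SLC7A1, SLC7A5, SLC7A6, SLC7A8, SLC3A2, SLC1A1, SLC1A4, SLC1A5, SLC38A1 and SLC38A2. The genes were chosen by name, with earlier results of these data known. Every probe set annotated with 1 of these symbols alone was taken, which gave 25 of 22215 tested probe sets and 10 of 11964 genes. All arrays carried total RNA of cells labelled HSC2, a human oral squamous carcinoma line kept in DMEM with fetal bovine serum. By their labels, 3 arrays hold cells stably transfected with full-length wild-type MALT1, the paracaspase of the NF-kappaB pathway, and 3 hold cells with the empty vector (mock), but the MALT1 transcript was lower on the arrays labelled MALT1 (values follow). The labels do not say how many clones each stable line holds or whether samples of a group were separate cultures, so p-values measure the spread between these samples only, which may be technical.

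Amino acid transporters bring charged and neutral amino acids into the cell and trade them against one another. The SLC7 light chains SLC7A5, SLC7A6 and SLC7A8 reach the cell surface only when bound to the glycoprotein heavy chain SLC3A2 (CD98) and work as exchangers, whereas SLC7A1 carries cationic amino acids alone. SLC1A4 and SLC1A5 exchange small neutral amino acids, among them glutamine for SLC1A5, SLC1A1 takes up glutamate, and SLC38A1 and SLC38A2 load the cell with glutamine and other neutral amino acids together with sodium. In many carcinomas SLC7A5, SLC3A2 and SLC1A5 are abundant, and the leucine they help to bring in acts on the growth kinase mTORC1. When amino acids are short, the transcription factor ATF4 binds C/EBP-ATF response elements in several of these genes.

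Signals are linear intensities, changes are log2 fold changes (MALT1 minus mock) ± their standard error, and a signal of 17.6, the highest of the bacterial trp control probe sets on any array, is used as the level below which a probe set is dim. The trp control signal was 17.6 on MALT1 replicate 3 and 6.13 to 14.7 on the other arrays. The arrays' median signals were 69.3 to 79.0 (MALT1) and 64.1 to 68.2 (mock), and MALT1 replicate 3 had the smallest share of dim probe sets (25.6%, against 31.7% to 33.3% on the others) and the highest ACTB 3′ to 5′ ratio (4.46, against 3.59 to 3.98). The MALT1 transcript was lower on the arrays labelled MALT1, with signals of 128, 124 and 107 against 282, 242 and 236 on the mock arrays for probe set 210017_at (−1.08 ± 0.12 on the log2 scale, adjusted p = 0.00220), which goes against the labels, so groups are named by label throughout. On the other MALT1 probe sets every array labelled MALT1 was below every mock array too, by 0.47 (208309_s_at, adjusted p = 0.0104) and 0.28 (210018_x_at, adjusted p = 0.0969, not passing) on the log2 scale. Cell type markers differed as well. Of 16 luminal epithelium genes 16 were higher on the arrays labelled MALT1, with a summed signal of 80204 to 89316 against 9148 to 9882, and KRT19, FOXA1, TFF1, SPDEF and MUC1 were dim on all mock arrays. Of 11 measured squamous epithelium genes 10 were lower, with a summed signal of 15970 to 17866 against 47870 to 52301, and KRT16 was dim on all arrays labelled MALT1. Fibroblast markers summed to 142 to 271 against 156 to 209 (FAP dim on all arrays; LUM lower at 0.424, 0.189 and 0.212 against 17.8, 19.2 and 21.2, adjusted p = 5.9e-05), leukocyte markers to 42.3 to 131 against 39.6 to 66.4 (PTPRC and LYZ dim; CD14 higher at 7.41, 27.1 and 18.2 against 2.26, 1.30 and 0.971, dim on all mock arrays, adjusted p = 0.0101), and endothelial markers to 33.5 to 44.6 against 30.2 to 52.5 (CDH5, VWF and KDR dim). These markers move with the labels, and so with every difference by label that follows. Their part in those differences was not tested. In such bulk RNA, fewer cells of a type and less RNA per cell cannot be told apart. Whether both label groups hold the same cells was not tested, so each fold below compares arrays by label only.

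Promoter sequence is shown for the transporters whose start regions hold a motif of ATF4 or MYC, which are known to bind several transporter genes. The windows are those of RefSeq on GRCh38.p14, 250 bases before and 50 from each annotated start, and all 10 genes had at least 1 of 19 windows. The C/EBP-ATF response element was searched as TGATGNAAN and the MYC E-box as CACGTG, on both strands, and no match of one overlapped the other. In the lines that follow the match to the response element is in capitals, read along the gene's strand.
SLC7A1 (chr13:29595663-29595691, minus strand): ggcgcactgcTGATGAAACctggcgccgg
SLC3A2 (chr11:62881725-62881748, plus strand): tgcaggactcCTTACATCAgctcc
SLC1A4 (chr2:64989381-64989409, plus strand): gcggctcccgTTTGCATCAtctccagccg
SLC1A5 (chr19:46784893-46784921, minus strand): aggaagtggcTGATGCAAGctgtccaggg
SLC38A1 (chr12:46266502-46266530, minus strand): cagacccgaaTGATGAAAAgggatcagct
In SLC3A2 and SLC1A4 the element lies on the opposite strand, so its reverse complement is seen. The matches of SLC7A1 and SLC3A2 begin 7 and 36 bases after the start, and those of SLC1A4, SLC38A1 and SLC1A5 begin 8, 4 and 97 bases before an annotated start. The element was found in 5 of the 10 genes, against 4.45% of the 27305 genes in the table, and in 5 of 19 member windows against 3.61% of 35116 windows. Several members have more than 1 start, and a match may lie at only 1 of them. The E-box was found in SLC7A5, SLC7A8 and SLC1A5, 3 of 10 genes against 8.77% of all genes (7.26% of windows). The E-boxes of SLC7A8 and SLC1A5 begin 129 and 50 bases before an annotated start and are in capitals.
SLC7A8 (chr14:23154507-23154532, minus strand): caattagaaaCACGTGctcagttcct
SLC1A5 (chr19:46787328-46787353, minus strand): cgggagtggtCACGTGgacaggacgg
For SLC7A5 the whole stretch upstream of the start is given, 250 bases of which 79.6% are G or C, with the E-box in capitals.
SLC7A5 (chr16:87869508-87869757, minus strand): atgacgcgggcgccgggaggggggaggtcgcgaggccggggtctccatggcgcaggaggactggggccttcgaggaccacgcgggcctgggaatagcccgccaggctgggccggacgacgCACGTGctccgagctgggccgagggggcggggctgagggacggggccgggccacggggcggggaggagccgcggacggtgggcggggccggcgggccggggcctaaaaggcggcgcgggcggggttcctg
These matches describe the letters only. No binding was measured. Of the genes with the response element SLC38A1 was higher and SLC7A1, SLC3A2 and SLC1A5 lower on their brightest probe sets. The brightest probe set of SLC1A4 did not pass. The 3 genes with the E-box were lower, SLC7A5 under all 12 alternative settings of the analysis, SLC7A8 under 8 and SLC1A5 under 6. Over all genes, 21.1% were higher and 19.2% lower by their brightest probe set. Any link between a motif and a change was not tested.

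The labels set MALT1 against mock transfection, but since the MALT1 transcript goes against them, the comparison is only one of arrays by label. Of the 25 member probe sets 8 were lower and 2 higher with the MALT1 label at an adjusted p under 0.05, and 15 did not pass (limma with Benjamini-Hochberg adjustment over all 22215 probe sets). That is 40.0% of them, where 35.6% of all probe sets passed. By direction, 32.0% were lower, where 17.0% of all probe sets were, and 8.00% were higher, where 18.6% were. These shares are descriptions only, since the members were chosen with earlier results of these data known. SLC7A1 and SLC7A8 each gave 2 of the lower probe sets. The heavy chain SLC3A2, its light chains SLC7A5 and SLC7A8, the cationic carrier SLC7A1, the glutamine exchanger SLC1A5 and 1 probe set of SLC1A4 were lower, and SLC38A1 and 1 probe set of SLC7A6 were higher. The median log2 fold change was −0.46 over the member probe sets and 0.08 over all probe sets, and centring each array on its median moved the latter by −0.13, quantile normalization by −0.12. A change of at least 2-fold was passed by 3 member probe sets, all lower (8.57% of all probe sets were). In 14 of the 25 the groups did not overlap, where 49.7% of all probe sets did not.

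**Figure D1:**
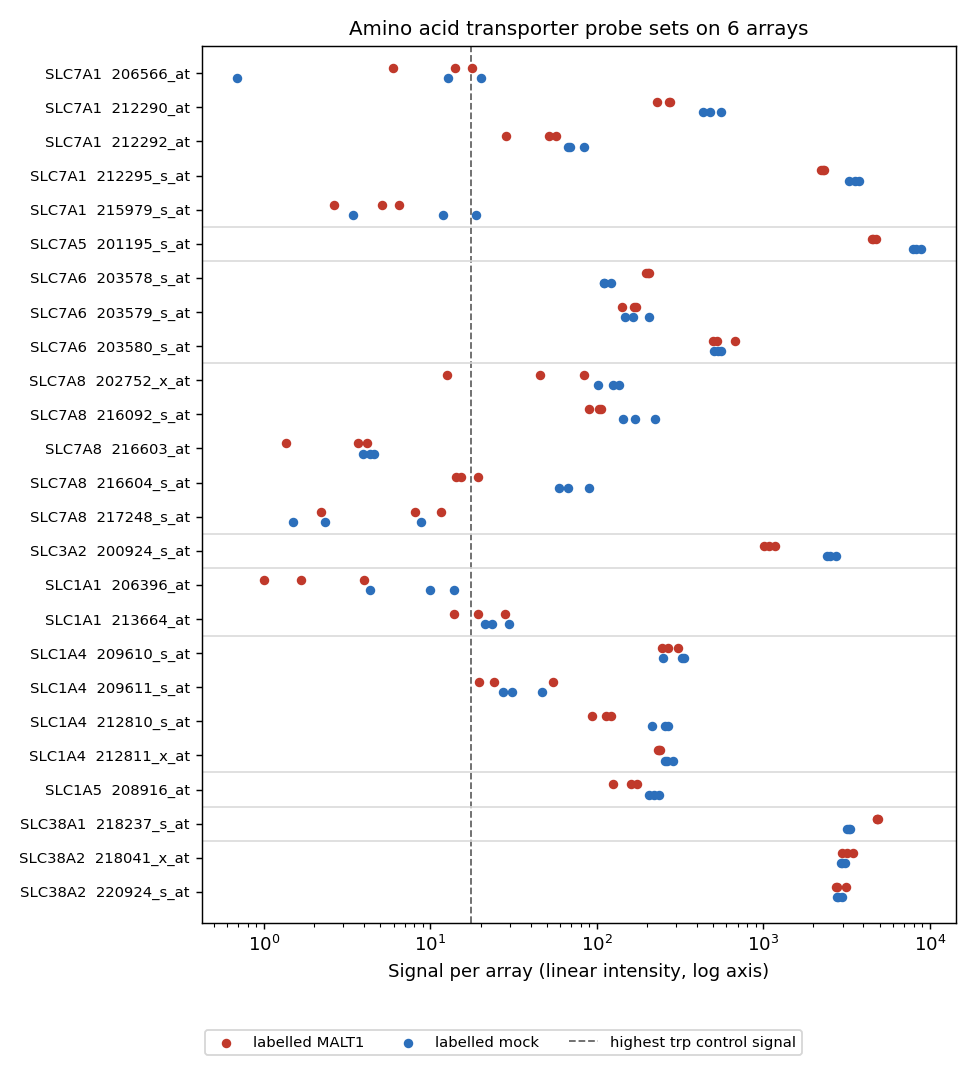
Signal of each of the 25 member probe sets on each of the 6 arrays (log axis; red, labelled MALT1; blue, labelled mock), with the dim level of 17.6 as a dashed line. SLC7A5, SLC3A2 and the brightest SLC7A1 probe set lie lower on all 3 arrays labelled MALT1, SLC38A1 lies higher, and 8 probe sets touch the dim level on at least 1 array.

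SLC3A2, the heavy chain, had the smallest adjusted p of the members. Its probe set (200924_s_at) read 1180, 1077 and 1008 on the arrays labelled MALT1 and 2732, 2407 and 2533 on the mock arrays. Every array labelled MALT1 was below every mock array, with means of 1088 ± 86.4 and 2557 ± 164 (SD, n = 3 each), a log2 fold change of −1.23 ± 0.10 SE and an adjusted p of 8.0e-04. Over the 12 alternative settings the fall ranged from 1.18 to 1.36 on the log2 scale and passed in all 12. One of its 3 start windows holds the response element shown above.

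SLC7A5 (LAT1), the exchanger of leucine and other large neutral amino acids that pairs with SLC3A2, was lower too. Its only probe set (201195_s_at) read 4731, 4490 and 4552 on the arrays labelled MALT1 and 7884, 8317 and 8896 on the mock arrays. The groups were well apart, at 4591 ± 126 against 8366 ± 508 (SD, n = 3 each, −0.86 ± 0.09 on the log2 scale, adjusted p = 0.00148). It passed under each of the 12 alternatives.

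SLC7A8 (LAT2), an exchanger of small and large neutral amino acids found mainly in polarised epithelia, gave lower signals on 2 of its 5 probe sets. The brightest (216092_s_at) read 106, 90.3 and 103 against 169, 143 and 225 on the mock arrays, lower on every array labelled MALT1 (−0.82 ± 0.19 on the log2 scale, adjusted p = 0.0249). That call was lost without MALT1 replicate 1, 2 or 3 or mock replicate 1 (adjusted p = 0.0622, 0.0794, 0.0608 and 0.0680) and held without mock replicate 2 or 3 (0.0240 and 0.0351). The dimmer 216604_s_at read 15.2, 14.2 and 19.4 against 67.5, 89.1 and 59.2 (−2.07 ± 0.20 on the log2 scale, adjusted p = 0.00127), but 2 of the 3 arrays labelled MALT1 were at the dim level, so the size of this fall is uncertain. Probe set 202752_x_at was scattered, with 83.5, 45.5 and 12.6 against 136, 101 and 125, and did not pass although the groups did not overlap (adjusted p = 0.129, and 0.0301 with a variance trend). The other 2 (216603_at and 217248_s_at) were dim on all 6 arrays and say nothing of the gene.

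SLC7A6 (y+LAT2), a light chain that exchanges cationic for neutral amino acids with sodium, gave probe sets that disagreed. Probe set 203578_s_at read 198, 204 and 207 on the arrays labelled MALT1 and 111, 122 and 111 on the mock arrays, higher on each of the former (0.82 ± 0.09 on the log2 scale, adjusted p = 0.00157, passing under all 12 alternatives). The brightest, 203580_s_at, read 525, 501 and 673 against 509, 537 and 559 (0.07 ± 0.14 on the log2 scale, adjusted p = 0.752), and its sign turned after median centring (−0.06) and without MALT1 replicate 3 (−0.06). The third, 203579_s_at, read 167, 171 and 141 against 147, 164 and 206 (−0.10 ± 0.16 on the log2 scale, adjusted p = 0.707). On both of these the groups overlapped, so the rise rests on 1 of 3 probe sets.

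SLC7A1 (CAT1), the carrier of arginine and lysine that needs no heavy chain, was lower on 2 of its 5 probe sets. The brightest (212295_s_at) read 2287, 2331 and 2209 against 3283, 3568 and 3766 on the mock arrays (−0.64 ± 0.09 on the log2 scale, adjusted p = 0.00472). Probe set 212290_at read 270.0, 229 and 274 against 432, 554 and 481 (−0.92 ± 0.14 on the log2 scale, adjusted p = 0.00533). In both, every array labelled MALT1 was lower than every mock array, and both passed under all 12 alternatives. On 212292_at the values were 57.1, 51.6 and 28.5 against 68.8, 67.1 and 83.9, apart without overlap but not passing (−0.72 ± 0.29 on the log2 scale, adjusted p = 0.122). The other 2 (206566_at and 215979_s_at) were at or below the dim level on most arrays, did not pass, and give no fold.

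**Figure D2:**
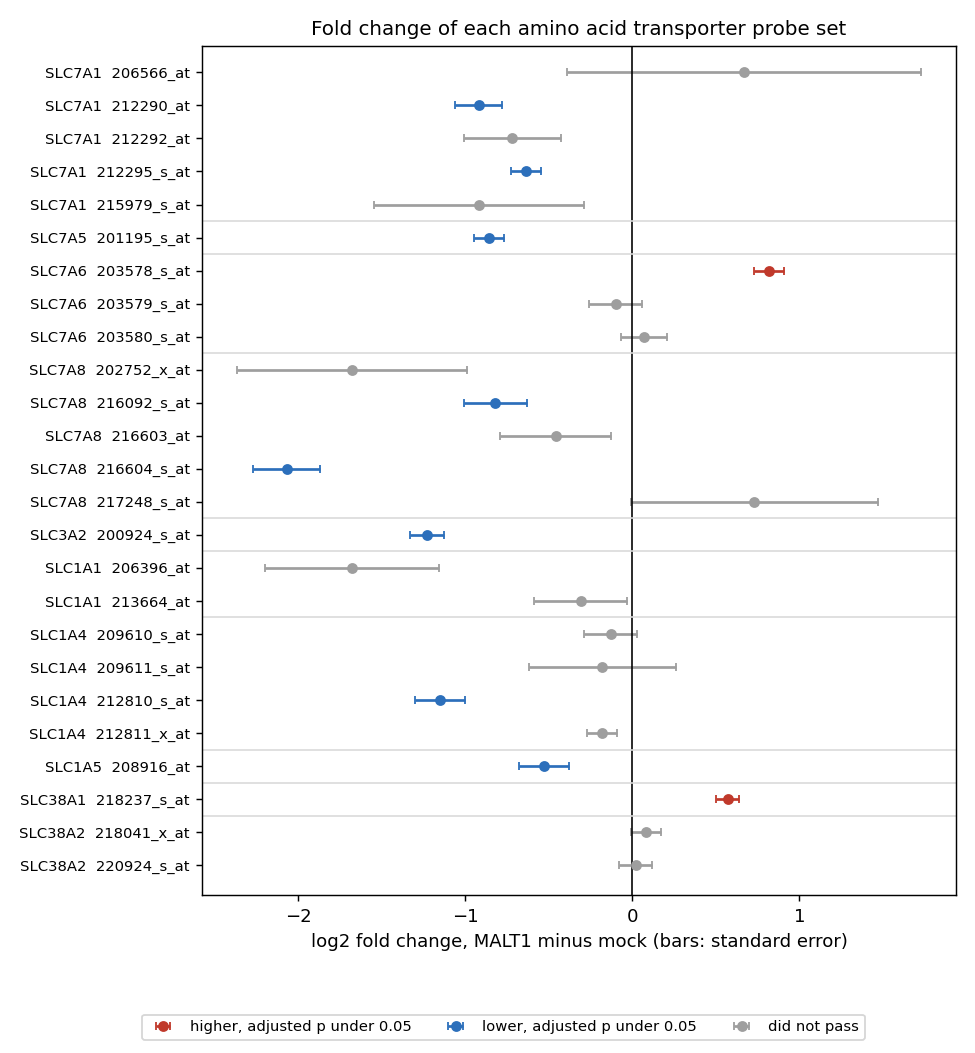
Log2 fold change (MALT1 minus mock, bars are standard errors) of each member probe set, blue where lower and red where higher at an adjusted p under 0.05, grey where the test was not passed. The 8 lower probe sets run from −0.53 (SLC1A5) to −2.07 (SLC7A8), the 2 higher ones are 0.57 (SLC38A1) and 0.82 (SLC7A6), and the probe sets of SLC7A6 and SLC1A4 differ among themselves.

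SLC1A5 (ASCT2), the glutamine exchanger, was lower with an adjusted p close to the threshold. Over the 12 alternative settings its log2 fold change ran from −0.66 to −0.40 and passed in 6. Its probe set (208916_at) read 125, 160.2 and 174 on the arrays labelled MALT1 and 221, 205 and 235 on the mock arrays. The groups did not overlap (153 ± 25.0 against 220.1 ± 14.9, SD, n = 3 each; −0.53 ± 0.15 on the log2 scale, adjusted p = 0.0466). The call was lost without MALT1 replicate 1 (adjusted p = 0.0790) or 2 (0.0926) and without mock replicate 1 (0.121), 2 (0.0901) or 3 (0.130).

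SLC1A4 (ASCT1), the exchanger of alanine, serine and cysteine, was lower on 1 of its 4 probe sets. Probe set 212810_s_at read 114, 93.8 and 122 against 213, 255 and 268 on the mock arrays (−1.15 ± 0.15 on the log2 scale, adjusted p = 0.00352, passing under all 12 alternatives). The brightest, 209610_s_at, overlapped between the groups at 269, 309 and 246 against 324, 334 and 249 (−0.13 ± 0.16 on the log2 scale, adjusted p = 0.600). Probe set 212811_x_at read 233, 236 and 238 against 264, 287 and 255, lower on every array labelled MALT1 but by 0.18 on the log2 scale and not passing (adjusted p = 0.171). The weak 209611_s_at, 24.2, 19.7 and 54.7 against 27.1, 30.8 and 46.6, did not pass (adjusted p = 0.794). The positions of these probe sets along the transcript were not analysed here.

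SLC1A1 (EAAT3), the glutamate carrier, was near the dim level on all arrays. Its brighter probe set (213664_at) read 13.8, 19.4 and 28.0 against 23.3, 21.3 and 29.7 (−0.31 ± 0.28 on the log2 scale, adjusted p = 0.471), with overlapping groups. The other (206396_at) was dim on all 6 arrays, so no fold is given. Its adjusted p was 0.0594, and it fell to 0.0431 after median centring, 0.0206 after quantile normalization, 0.0447 without MALT1 replicate 3 and 0.0367 without mock replicate 1.

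SLC38A1 (SNAT1), a sodium-coupled glutamine loader, was the only member whose brightest probe set passed as higher with the MALT1 label. Its probe set (218237_s_at) read 4863, 4847 and 4850 there and 3266, 3195 and 3314 on the mock arrays. The groups were apart, at 4853 ± 8.74 against 3258 ± 60.2 (SD, n = 3 each, 0.57 ± 0.07 on the log2 scale, adjusted p = 0.00337), and the call held under each of the 12 alternatives. SLC38A2 (SNAT2), its paralog that lies next to it on chromosome 12 with 0 protein-coding genes between them and that is known as a target of ATF4, did not pass on either probe set. Probe set 218041_x_at read 2981, 3163 and 3450 against 2987, 3116 and 2950 (0.08 ± 0.09 on the log2 scale, adjusted p = 0.565), and 220924_s_at read 2750, 2760 and 3158 against 2814, 2784 and 2958 (0.02 ± 0.10, adjusted p = 0.923). The groups overlapped on both, and the sign of both turned after median centring (−0.05 and −0.11).

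For 5 pairs of members that form a heterodimer or share a transport system, the difference between their fold changes was taken within each array, on the brightest probe sets, with an exact two-sided permutation test of the 6 arrays, for which 0.10 is the smallest p possible. No pair could therefore pass 0.05. The change of SLC3A2 was larger than that of SLC7A5 by 0.37 ± 0.10 SE on the log2 scale, with the arrays of the groups apart (exact p = 0.10, adjusted p = 0.167 over the 5 pairs). Against the brightest SLC7A6 probe set the difference was 1.30 ± 0.20 SE (exact p = 0.10, adjusted p = 0.167). SLC7A5 and SLC7A8 differed by 0.05 ± 0.17 SE, within the spread between arrays (exact p = 0.80, adjusted p = 0.800). SLC1A4 less SLC1A5 gave 0.40 ± 0.26 SE with overlapping arrays (exact p = 0.30, adjusted p = 0.375). The direction of this pair depends on the probe set. SLC1A4 212810_s_at fell by 1.15, more than SLC1A5 with 0.53. Probe sets of SLC7A6 and SLC7A8 differed among themselves too, so their differences hold for the brightest only. SLC38A1 less SLC38A2 gave 0.49 ± 0.07 SE with the groups apart (exact p = 0.10, adjusted p = 0.167).

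**Figure D3:**
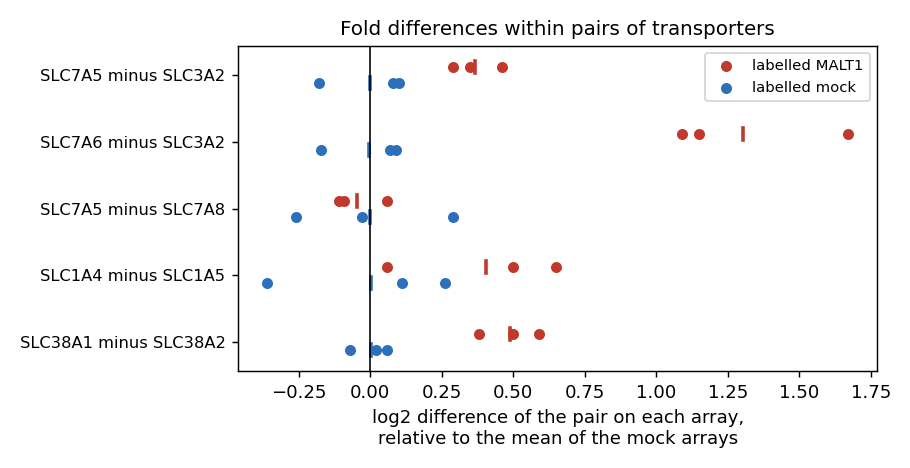
Log2 difference between the 2 members of each pair on each array, set to the mean of the mock arrays (points, arrays; short bars, group means; red, labelled MALT1; blue, labelled mock). The groups lie apart for SLC7A5 with SLC3A2, SLC7A6 with SLC3A2 and SLC38A1 with SLC38A2, and overlap for SLC7A5 with SLC7A8 and SLC1A4 with SLC1A5.

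Other amino acid transporters went both ways. Taking 1 probe set a gene, the brightest, 7 of 27 measured were higher, 4 lower and 16 did not pass, where 21.1% of all genes were higher and 19.2% lower, and their median log2 fold change was −0.02 against 0.08 over all genes. By the same count, of the 10 members 1 was higher, 5 lower and 4 did not pass. SLC7A11, the cystine-glutamate exchanger that also pairs with SLC3A2, read 854, 840.5 and 771 on the arrays labelled MALT1 and 1646, 1641 and 1539 on the mock arrays, lower on each of the former (−0.97 ± 0.09 on the log2 scale, adjusted p = 0.00103). The lysosomal and surface proton-coupled carrier SLC36A1 read 127 ± 17.3 against 434 ± 61.8 (−1.76 ± 0.16 on the log2 scale, adjusted p = 0.00107) and the glutamate carrier SLC1A3 43.8 ± 9.75 against 128 ± 16.9 (−1.54 ± 0.20 on the log2 scale, adjusted p = 0.00321). In the opposite direction, SLC6A14, a broad carrier of neutral and cationic amino acids, read 180.0, 176 and 127 against 7.34, 3.80 and 5.84, dim on all mock arrays and so at least 9.01-fold higher (adjusted p = 2.3e-04). At least 1 group was wholly dim for 13 of the 27 genes, and when the dimmer probe sets were left out 1 passed as higher and 3 as lower. Without MALT1 replicate 1 the number higher was 4, with 4 lower.

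Genes of the amino acid response, the ATF4 programme of which several transporters are targets, went both ways. Of 25 measured, 6 were higher, 6 lower and 13 did not pass, 48.0% called where 40.4% of all genes were, and their median change was 0.07 (log2). ATF4 itself read 4397, 4250 and 4537 against 4563, 3811 and 4228, with overlapping groups (0.07 ± 0.10 on the log2 scale, adjusted p = 0.664), and its sign turned after median centring (−0.06). Asparagine synthetase (ASNS) was higher, at 1683, 1650 and 1750 against 1030, 1017 and 1026 (0.72 ± 0.08 on the log2 scale, adjusted p = 0.00170), and so was the related factor ATF5 (1.12 ± 0.10 on the log2 scale, adjusted p = 0.00108). The serine synthesis enzymes PSPH and PSAT1 were lower, at 1112 ± 84.3 against 4860 ± 680.0 and 72.9 ± 31.1 against 393 ± 22.8 (SD, n = 3 each, log2 fold changes −2.12 and −2.49, adjusted p = 3.7e-04 and 0.00262). PSPH has a pseudogene, PSPHP1, whose transcript could share probes. The number passing was 19 with the dimmer probe sets left out or a variance trend, and 7 without mock replicate 2. By direction, 10 were higher and 9 lower under either of the former, 3 higher and 4 lower without mock replicate 2, and 3 higher and 6 lower without MALT1 replicate 1.

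In the mTORC1 and amino acid sensing list, 11 of 27 measured genes were higher, 6 lower and 10 did not pass, 63.0% called where 40.4% of all genes were (21.1% higher and 19.2% lower), their median change being 0.19 (log2). The S6 kinase gene RPS6KB1 read 7433, 7352 and 6190 on the arrays labelled MALT1 and 716, 896 and 779 on the mock arrays (3.13 ± 0.13 on the log2 scale, adjusted p = 1.1e-04). The leucine sensor relative SESN1 rose by 1.48, the GATOR subunits SEC13 and NPRL2 by 1.23 and 1.14, and the translation repressor EIF4EBP1 by 0.52 on the log2 scale (adjusted p = 3.1e-04, 3.4e-04, 6.5e-04 and 0.0127). The EIF4EBP1 call was lost without mock replicate 2 (adjusted p = 0.0528). The 6 lower genes were ITFG2, RRAGA, TFEB, SEH1L, MTOR and RRAGC. They fell by 0.95, 0.82, 0.74, 0.74, 0.65 and 0.30 on the log2 scale (adjusted p = 0.00205, 0.00459, 0.00961, 0.0129, 0.0395 and 0.0490). The number of lower genes was 3 with probe sets of a gene averaged. SEC13 and SEH1L, which went opposite ways, belong to GATOR2, which acts for mTORC1, while SESN1 and the GATOR1 subunit NPRL2 restrain it.

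Among enzymes that use the transported amino acids, 8 of 24 measured were higher, 5 lower and 11 did not pass, 54.2% called where 40.4% of all genes were (21.1% higher and 19.2% lower), their median change being 0.25 (log2). The number of lower enzymes was 2 without mock replicate 1 or with probe sets of a gene averaged, and 3 without mock replicate 3. Argininosuccinate synthase (ASS1), an enzyme of arginine synthesis, read 1443, 1460 and 1426 against 277, 266 and 317 (2.33 ± 0.10 on the log2 scale, adjusted p = 1.1e-04). Ornithine decarboxylase (ODC1) rose by 1.31, the glutathione synthesis enzyme GCLC by 1.42 and the proline synthesis enzyme PYCR1 by 1.04 on the log2 scale (adjusted p = 2.8e-04, 5.4e-04 and 0.00104). The 5 lower enzymes were BCAT1, GLUD1, DBT, BCKDHB and ARG2. They fell by 1.68, 0.66, 0.57, 0.50 and 0.41 on the log2 scale (adjusted p = 0.00863, 0.00386, 0.0172, 0.0134 and 0.0410). Of 17 aminoacyl-tRNA synthetases and their scaffold proteins, 4 were higher, 2 lower and 11 did not pass, 35.3% called, below the 40.4% of all genes (21.1% higher and 19.2% lower), with a median of 0.17. AARS1, SARS1 and YARS1 rose by 0.97, 0.48 and 0.38 and CARS1 fell by 0.75 on the log2 scale (adjusted p = 0.00108, 0.00832, 0.0153 and 0.00432). After median centring SARS1 and YARS1 did not pass (adjusted p = 0.0655 and 0.140), and YARS1 also missed without MALT1 replicate 1 or 2 or mock replicate 1 or 2 (adjusted p = 0.0548, 0.0525, 0.0566 and 0.0507). The synthetase count was 10 with the dimmer probe sets left out or a variance trend, and 3 after median centring, without MALT1 replicate 1, without mock replicate 1 or without mock replicate 2.

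**Figure D4:**
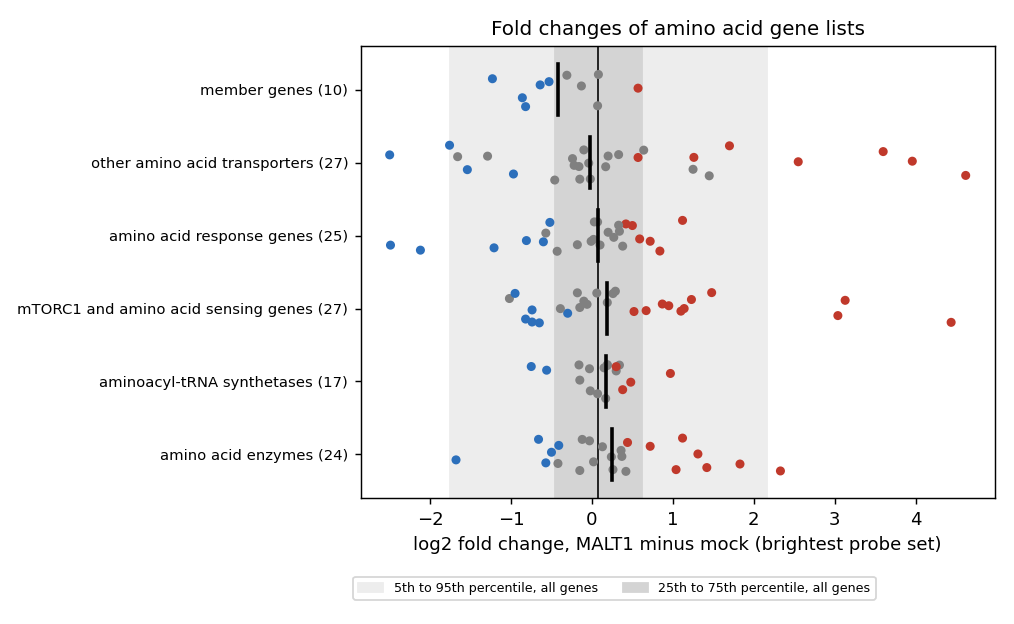
Log2 fold change (MALT1 minus mock) of each gene, by its brightest probe set, for the 10 member genes and 5 lists (number measured in brackets; red higher, blue lower, grey not passing; thick bars, medians). Shaded bands give the middle of all genes, 25th to 75th percentile (−0.46 to 0.62) and 5th to 95th percentile (−1.76 to 2.16), and the medians are −0.42 for the members and −0.02 to 0.25 for the lists.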

How the data were processed

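Total RNA of 6 samples was extracted with Trizol, biotin-labelled and hybridised to Affymetrix arrays, per the labels' protocols. The authors deposited linear intensity values, 1 per probe set, scaled so that each array's mean after trimming 2% at each end is 500.1 to 500.2, as the values show; the summarising program is not named in the labels. Of 22277 probe sets, 62 controls were left out and 22215 tested, with no filter on signal; 19064 have 1 gene symbol, 1043 several and 2108 none, and 19052 were matched by gene ID to RefSeq. Log2(signal + 1) was compared with limma 3.58.1 in R 4.3.3 (lmFit, eBayes, group as the only term, two-sided, Benjamini-Hochberg over all probe sets). Fold changes of dim genes are uncertain and depend on the pseudocount. That of SLC6A14 was 4.62 with a pseudocount of 1 and 3.02 with 16 on the log2 scale. The fit was tested on simulated data in which only probe sets above the median signal were changed, so that test does not cover dim genes. All member probe sets are named. In each list, up to 4 genes with the smallest adjusted p are named, and ATF4, SLC7A11 and EIF4EBP1 whatever their result. Genes of lists take the probe set with the highest mean signal, and listed genes without a single-symbol probe set in the table used here have no value. Members and lists were chosen with earlier results of these data known, so their counts are descriptions. A fold against a dim group divides the other group's geometric mean by 17.6. Probe sets ending in s_at or x_at can bind several transcripts. The labels give no batch. Alternatives were array centring, quantile normalization, a pseudocount of 16, leaving out dimmer probe sets, a variance trend, a replicate block, averaged probe sets and leaving out each array.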

Additional observations from a re-analysis of the deposited data

How the results depend on the processing

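Precision is limited by the number of arrays, 3 a group, and is low for signals near 17.6. The member probe sets passing numbered 8 to 11 over the alternatives, with 2 higher under each of the 12. Over 290 values of single member probe sets under the alternatives, 265 kept direction and side of the threshold, 10 fell short of it, 5 newly passed and 10 changed sign, all 10 in probe sets that did not pass. Signs turned after median centring for SLC7A6 203580_s_at (−0.06), SLC38A2 218041_x_at (−0.05) and 220924_s_at (−0.11) and ATF4 200779_at (−0.06). Leaving out 1 array in turn, the ranges crossed 0 for SLC7A1 206566_at (−0.45 to 1.38, turned without mock replicate 3), SLC7A6 203579_s_at (−0.20 to 0.04, without mock replicate 3) and 203580_s_at (−0.06 to 0.15, without MALT1 replicate 3), SLC1A4 209611_s_at (−0.61 to 0.10, without MALT1 replicate 2 or mock replicate 3) and SLC38A2 220924_s_at (−0.05 to 0.05, without MALT1 replicate 3 or mock replicate 2). With the dimmer probe sets left out, 15 of 25 member probe sets were tested and 4 other transporters, 19 response genes and 10 synthetases passed, and with a variance trend 19 response genes and 10 synthetases. After median centring 3 synthetases passed. Leaving out 1 array in turn gave 7 to 12 response genes and 3 to 6 synthetases. The causes were not tested. Deviations from the group means correlated weakly between same-numbered arrays (r = 0.0587, −0.00254 and 0.0607 over 11107 probe sets). Between arrays of unlike number r ran from −0.082 to 0.0477. Not every array correlated best with its own number. With 3 arrays a group such deviations cannot show or exclude a pairing. With the replicate block 5808 instead of 7917 probe sets passed, 9 of them members, and neither SLC1A5 (adjusted p = 0.0894) nor YARS1 (0.0727) did, and 2 instead of 5 enzymes were lower and 2 instead of 4 synthetases higher.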
